A study of Mus musculus with 6 samples.

Results

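The genes described here encode the intermediate filaments of neurons and 3 neuronal microtubule-associated proteins. The 8 members are the neurofilament light, medium and heavy chains (Nefl, Nefm, Nefh), alpha-internexin (Ina), peripherin (Prph) and, as a neuronal reference, Map1b, Map2 and Mapt. They were taken by name out of 25823 gene rows obtained by summing a transcript table. RNA-sequencing was performed on cochlear tissue of C57BL/6 mice, a strain with early-onset age-related hearing loss, at 1 month (young) and 12 months (old) of age. The sample labels name basilar membranes, whereas the study's methods name cochlear tissues. Each group had 3 samples, and each sample was a pool of tissue from 3 mice, so the spread between samples is that between pools. No other treatment or genotype was described. Levels are FPKM (fragment numbers scaled to transcript length and to library size), summed over the transcripts of a gene.

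Intermediate filaments are rope-like polymers whose subunits pair through a central coiled-coil rod. In large myelinated axons the light chain forms the core with the medium and heavy chains, whose long tails carry repeated Lys-Ser-Pro phosphorylation sites and project from the filament, and filament number helps to set axon calibre. Alpha-internexin copolymerizes with the triplet, mainly in central neurons. Peripherin is a type III filament protein of peripheral neurons that in the mature cochlea marks type II spiral ganglion neurons, the small unmyelinated cells that contact outer hair cells, whereas the many myelinated type I neurons that contact inner hair cells are rich in the triplet. MAP1B and MAP2 bind microtubules in axons and in dendrites and cell bodies, and tau, encoded by Mapt, binds axonal microtubules.

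The end of the coiled-coil rod is the most conserved part of the family and is shown for 3 of the 4 genes whose levels fell. It was read from the coding sequence of the GRCm38 genome, as 69 bases from 5′ to 3′ on the strand of each gene, and capitals mark the 56 positions at which the 3 genes had the same base.
Nefl: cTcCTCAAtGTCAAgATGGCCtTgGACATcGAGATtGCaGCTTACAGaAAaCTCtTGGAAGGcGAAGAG
Nefh: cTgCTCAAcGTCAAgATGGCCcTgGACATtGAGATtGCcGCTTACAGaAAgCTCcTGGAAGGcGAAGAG
Ina: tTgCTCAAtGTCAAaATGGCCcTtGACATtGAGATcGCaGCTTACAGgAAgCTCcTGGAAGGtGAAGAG
An exon junction falls after base 47 in each of them. The windows are at chr14:68086052-68086098 and chr14:68086487-68086508 (Nefl, plus strand, exons 2 and 3), chr11:4943851-4943897 and chr11:4941394-4941415 (Nefh, minus strand, exons 3 and 4) and chr19:47021911-47021957 and chr19:47023335-47023356 (Ina, plus strand, exons 2 and 3). Identity between pairs ran from 84.1% (Nefl and Ina) to 89.9% (Nefl and Nefh).

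The tails set the triplet chains apart. Nefh held 51 in-frame codon runs for Lys-Ser-Pro in a coding sequence of 3270 nt, against 4 in Nefm and 0 in Nefl, Ina and Prph. A 90-nt piece of the Nefh tail (GRCm38 chr11:4940974-4941063, minus strand, exon 4) shows the repeat, with capitals on 5 such codon runs.
Nefh tail: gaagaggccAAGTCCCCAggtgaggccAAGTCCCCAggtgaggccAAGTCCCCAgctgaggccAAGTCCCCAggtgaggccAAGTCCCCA
Among the microtubule-associated members, the same search found 3 runs in Map1b, 2 in Map2 and 2 in Mapt.

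The young samples were not alike. Young 3 was lower than the other young samples for Nefl, Nefm and Nefh, at 57.1% to 57.8% of the mean of young 1 and young 2, and for Ina at 68.9%. It was also the lowest young sample for Mapt (61.1% of that mean), Map2 (66.9%) and Map1b (86.1%). The summed level of 16 spiral ganglion neuron markers was likewise 724 FPKM in young 3 against 1073 and 1252 FPKM in young 1 and young 2, and that of 10 Schwann cell and myelin markers was 884 against 1333 and 1249 FPKM. Summed hair cell markers were highest in young 3 (207 FPKM, against 175 and 116), and most of this sum was Ocm (173 FPKM, against 140 and 91.9). Of the other hair cell markers, some were highest in young 3, such as Otof (7.72 FPKM, against 7.31 in young 1). Others were highest in young 1, such as Myo7a (8.15 FPKM, against 5.89 in young 3). In the Schwann cell list, Sox10 alone was highest in young 3 (37.2 FPKM, against 29.4 and 29.9). How much nerve each dissection held was not recorded in the labels, and its part in the results below was not tested. From the steps between low values, the 6 libraries were estimated to hold 12520000 to 15540000 fragments.

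The neurofilament triplet and alpha-internexin were lower in old cochleae. Of the 8 members, 4 fell past the threshold (limma, adjusted p under 0.05 over 19649 genes), and these were Nefl, Nefm, Nefh and Ina; among all genes tested 3.68% were called lower. None of the 8 was called higher, against 5.41% of all genes, and 1 of them, Prph, was higher at an unadjusted p under 0.05. In whole tissue, fewer cells of a type and less RNA per cell cannot be told apart.

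Nefl, the light chain on which the other chains assemble, had the highest level of the members in young mice. It was 204, 236 and 127 FPKM in young 1, 2 and 3, and 85.6, 90.1 and 86.2 FPKM in old 1, 2 and 3. Every old sample was therefore below every young one, and the old samples lay within a narrow band while the young did not. The means were 189 ± 55.8 and 87.3 ± 2.43 FPKM (SD, n = 3 each), a level 2.17-fold higher in young mice. On the log2(FPKM + 0.1) scale used for all differences the change was -1.07 (SE 0.21, limma adjusted p = 0.0269).

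Nefm, the medium chain, showed the largest difference of the members. Its levels were 50.5, 65.1 and 33.0 FPKM in the young samples and 19.3, 19.6 and 19.0 FPKM in the old ones. The highest old value was 59.6% of the lowest young value. The log2 change was -1.30 (SE 0.22, limma adjusted p = 0.0216), with means of 49.5 ± 16.1 and 19.3 ± 0.337 FPKM.

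Nefh, the heavy chain of mature large axons, was measured at 122, 149 and 77.9 FPKM in young 1, 2 and 3 and at 50.6, 62.0 and 55.7 FPKM in old 1, 2 and 3. The groups again did not overlap, although young 3 and old 2 were closer than for Nefm. The log2 change was -1.01 (SE 0.22, limma adjusted p = 0.0366), from 116 ± 36.0 to 56.1 ± 5.71 FPKM.

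Ina, which joins the triplet in the filament, was present at a much lower level than the triplet. It was 11.2, 16.2 and 9.46 FPKM in the young samples and 5.25, 5.53 and 4.36 FPKM in the old samples. All old samples lay below all young ones, and the means were 12.3 ± 3.52 and 5.05 ± 0.609 FPKM (log2 change -1.24, SE 0.21, limma adjusted p = 0.0212). The start of Ina overlaps that of Nt5c2 on the opposite strand, and whether the counting used the strand was not stated.

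Each of these 4 calls was lost when any of the 3 old samples was left out, with log2 changes of -0.93 to -1.31 (limma adjusted p = 0.0612 to 0.106). Without young 1, Ina alone passed, and without young 2, Nefm and Ina did. Without young 3, the sample with low neuronal levels, all 4 passed, and the log2 changes were -1.33 (Nefl), -1.57 (Nefm), -1.27 (Nefh) and -1.41 (Ina). Without the variance trend of limma 0 of the 4 passed, and without the filter on low values 2 did (Nefm and Ina).

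**Figure D1:**
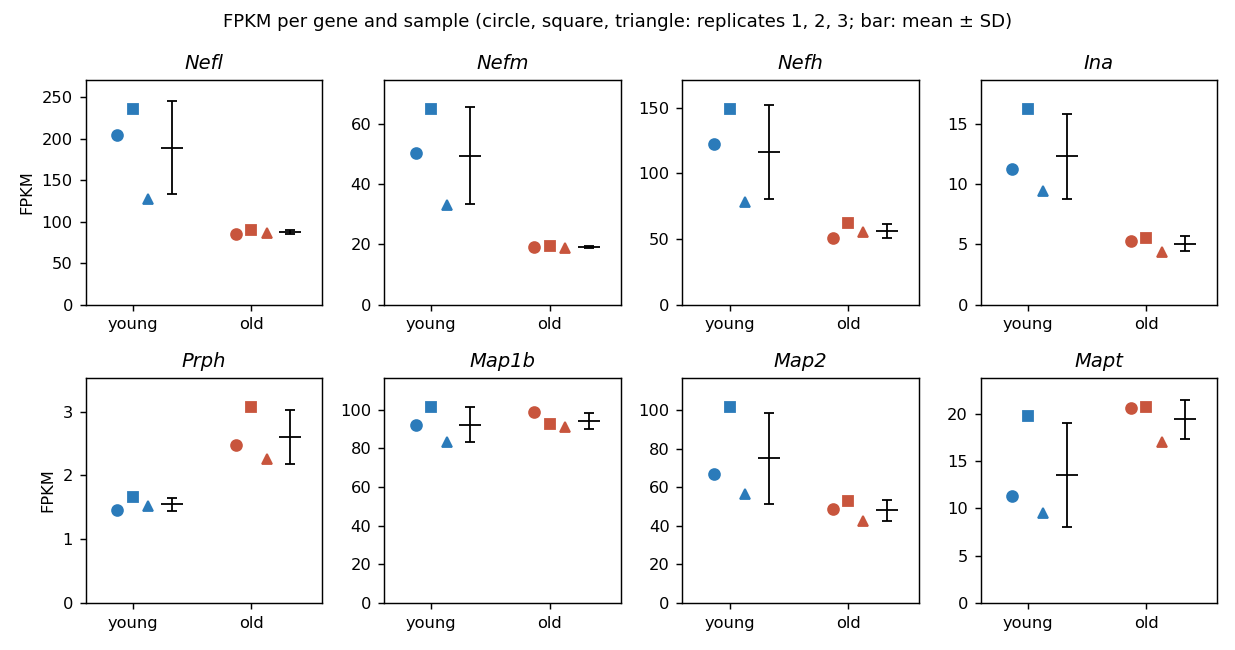
FPKM of the 8 members (vertical axes, linear, from 0) in young (blue) and old (red) cochleae; circle, square and triangle are replicates 1, 2 and 3, and the bar is the mean ± SD of 3 samples. The old samples lie close together below all young samples for Nefl, Nefm, Nefh, Ina and Map2, above them for Prph, and the groups overlap for Map1b and for Mapt, whose young 2 lies among its old samples.

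Peripherin differed from the other filament genes in direction. Prph was 1.47, 1.66 and 1.52 FPKM in the young samples and 2.48, 3.07 and 2.25 FPKM in the old samples. Each old sample was above each young one, and young 3 was at 97.1% of the mean of the other young samples. The means were 1.55 ± 0.0993 and 2.60 ± 0.421 FPKM, and the log2 change of 0.70 (SE 0.20, 95% interval 0.24 to 1.17) did not pass the threshold (limma adjusted p = 0.0687). The gene was covered by an estimated 27.7 to 70.8 fragments per sample, against 3302 to 10105 for Nefl.

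Other markers of type II neurons did not pass the test. Of Th, Plk5, Ano2, Gata3 and Etv4, none was called in either direction by limma, none had an unadjusted p under 0.05, and their median log2 change was -0.14. Gata3, a transcription factor also made by other cochlear cells and the most abundant of the list, was 7.30 to 9.46 FPKM in young and 7.23 to 9.17 FPKM in old mice. Ano2, a chloride channel, was under 0.5 FPKM in every sample.

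The microtubule-associated members did not move together. Map1b (chr13:99421446-99516540, minus strand), an early axonal protein that persists in sensory neurons, was 92.1, 101 and 83.2 FPKM in the young samples and 98.9, 92.4 and 91.0 FPKM in the old ones. The groups overlapped, with a log2 change of 0.03 (95% interval -0.16 to 0.23, limma adjusted p = 0.823), and the sign turned when young 3 or old 1 was left out and after quantile normalization.

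Map2 (chr1:66175273-66442583, plus strand), whose product is found in dendrites and cell bodies, was 67.0, 101 and 56.3 FPKM in young and 48.6, 53.0 and 42.4 FPKM in old samples. The groups did not overlap, but the highest old value was 94.1% of the lowest young one. The log2 change of -0.60 (SE 0.20) did not pass the threshold (limma adjusted p = 0.110, and 0.0529 without young 3).

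Mapt (chr11:104231390-104332090, plus strand) was 11.4, 19.8 and 9.54 FPKM in young samples and 20.6, 20.7 and 17.1 FPKM in old samples. Young 2 lay among the old samples while young 1 and young 3 lay below them. The log2 change was 0.58 (SE 0.25, limma adjusted p = 0.189); without young 2 it was 0.89 and passed the threshold (limma adjusted p = 0.0417), and without transcripts shorter than 500 nt it was 0.03.

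By position of the samples, 5 of the 8 members (Nefl, Nefm, Nefh, Ina and Map2) had every old sample below every young one, which held for 16.0% of all genes tested. Prph was the 1 member with every old sample above every young one, which held for 17.5% of all genes. With 3 samples against 3, an exact two-sided permutation test of a single gene cannot go below p = 0.1, the value obtained for each of these 6 members.

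Spread within the groups also differed between members. The coefficient of variation of Nefl, Nefm, Nefh and Ina was 28.6% to 32.4% in the young group and 1.75% to 12.1% in the old group. For Map2 it was likewise 31.4% in the young and 11.1% in the old group, and for Mapt 40.5% and 10.7%. For Prph it was 6.42% in the young and 16.2% in the old group, and for Map1b 9.74% and 4.48%.

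The order of the members' levels, which FPKM gives per length, was not the same at both ages. In young mice the mean levels fell from Nefl through Nefh, Map1b, Map2, Nefm, Mapt and Ina to Prph. Neighbours in that order overlapped between samples except Nefm with Mapt and Ina with Prph. In old mice Map1b came before Nefl, followed by Nefh, Map2, Mapt, Nefm, Ina and Prph. There the pairs Nefh with Map2 and Mapt with Nefm overlapped, and all other neighbours were apart.

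Ratios to Nefl within a sample do not depend on the scaling between samples and were compared for 7 pairs. Nefh/Nefl, the proportion of heavy to light chain, was 0.599, 0.633 and 0.612 in the young samples and 0.591, 0.689 and 0.647 in the old ones, which overlapped (difference of log2 ratios 0.06, exact permutation p = 0.5). Young 3 stood with the other young samples here, unlike in its levels.

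Nefm/Nefl was 0.247, 0.276 and 0.259 in young samples and 0.225, 0.218 and 0.220 in old samples. The old ratios were all lower, by 0.23 on the log2 scale (exact permutation p = 0.1, the smallest possible). Ina/Nefl was 0.0550, 0.0689 and 0.0744 in young and 0.0613, 0.0614 and 0.0506 in old samples and overlapped (difference -0.17, exact permutation p = 0.4).

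The other members were higher relative to the light chain in every old sample than in any young one. Nefl, itself lower in every old sample, is the denominator of all 7 pairs, so the pairs are not independent. A gene of steady level is then higher relative to Nefl, as for Map1b, whose own log2 change was 0.03. The share of all genes whose ratio to Nefl separates the groups was not computed. The difference in log2 ratio was 1.77 for Prph/Nefl, 1.65 for Mapt/Nefl, 1.10 for Map1b/Nefl and 0.47 for Map2/Nefl. In these 4 pairs the groups did not overlap, and each gave an exact permutation p = 0.1, or 0.14 after Benjamini-Hochberg adjustment over the 7 pairs, so that no pair could pass the threshold. Map1b was 0.429 to 0.654 of Nefl in young samples and 1.03 to 1.16 of it in old samples. The Mapt/Nefl difference was 1.10 without transcripts shorter than 500 nt.

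**Figure D2:**
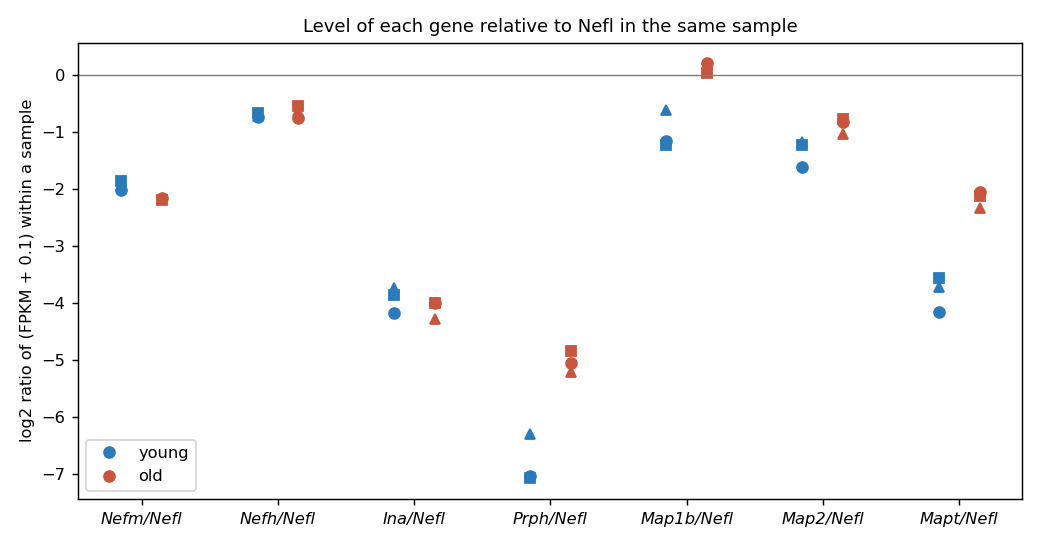
Log2 ratio of each member to Nefl in the same sample, from FPKM + 0.1 (vertical axis), for young (blue) and old (red) samples; circle, square and triangle are replicates 1, 2 and 3 and the line at 0 marks equal levels. Nefh/Nefl and Ina/Nefl overlap between ages, Nefm/Nefl is lower in every old sample, and the ratios of Prph, Map1b, Map2 and Mapt are higher in every old sample.

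The table listed 32 transcripts of the members, of which 25 passed the filter on low values. None of the 25 passed the threshold in the fit per transcript (limma, 38764 transcripts tested), in which 0.748% of all transcripts were called. At an unadjusted p under 0.05 there were 9, 7 lower and 2 higher, against 17.0% of all transcripts in either direction. Levels of transcripts that share exons are model estimates that divide the same reads.

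Nefl, Nefh, Ina and Map1b each had 1 transcript in the table, and Nefm and Prph had 2 each. The longer Nefm model, Nefm-202, runs across the neighbouring Nefl gene on the opposite strand (Nefl at chr14:68083863-68089095) and was at most 0.0893 FPKM. The Nefm level therefore came from Nefm-201, at 50.5, 65.0 and 32.9 FPKM in young and 19.2, 19.6 and 18.9 FPKM in old samples (log2 change -1.30, limma adjusted p = 0.0648 over transcripts).

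Map2 is spliced into long forms of dendrites and short forms that lack most of the projection domain. The long coding transcript, Map2-204 (coding length 5484 nt), was 20.9, 27.9 and 14.6 FPKM in young and 13.1, 13.3 and 11.4 FPKM in old samples. Its share of all Map2 FPKM was 26.0% to 31.2% in young and 25.1% to 27.0% in old samples, which overlapped. Map2-201, a short form, was 10.1, 18.9 and 10.8 FPKM in young samples and 5.20, 3.56 and 2.77 FPKM in old samples. Every old value of Map2-201 was below every young value (log2 change -1.75, SE 0.31, limma adjusted p = 0.0657).

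Short Map2 transcripts differ by an exon of 93 nt that adds a microtubule-binding repeat. The exon (GRCm38 chr1:66431527-66431619, plus strand) is coding and is shown, in capitals throughout, because the transcripts are grouped by it.
Map2 exon: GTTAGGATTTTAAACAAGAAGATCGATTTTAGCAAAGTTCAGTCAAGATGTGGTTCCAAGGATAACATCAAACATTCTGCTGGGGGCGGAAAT

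Grouped by that exon, a grouping made after the values had been seen, the 4 short Map2 transcripts without it summed to 15.0, 31.7 and 15.6 FPKM in young and to 7.28, 10.4 and 8.29 FPKM in old samples. The 2 with it summed to 14.8, 7.77 and 7.40 FPKM in young and to 13.9, 9.31 and 8.24 FPKM in old samples. The sum of the forms without the exon was thus lower in every old sample, and the sum of those with it overlapped. Of the single forms without it, only Map2-201 was lower in every old sample. Map2-205 overlapped (4.82, 9.59 and 4.34 FPKM in young and 2.08, 6.20 and 5.02 FPKM in old samples), as did Map2-202 and Map2-203. The sum with the exon was that of Map2-207, since Map2-206 was near 0 in every sample. Transcripts with the exon were 49.7%, 19.7% and 32.2% of short Map2 FPKM in young and 65.7%, 47.3% and 49.8% in old samples. These shares overlapped, since young 1 stood above old 2 (exact permutation p = 0.2).

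The most abundant Mapt transcript, Mapt-204, was 8.51, 8.67 and 6.76 FPKM in young and 8.75, 8.19 and 8.57 FPKM in old samples, which overlapped. The 6 Mapt transcripts of at least 500 nt summed to 11.4, 11.3 and 9.54 FPKM in young and 11.2, 11.1 and 10.6 FPKM in old samples, which overlapped as well. Mapt-203 was the Mapt transcript with every old sample below every young one, at 1.23, 1.31 and 1.54 FPKM in young and 0.271, 1.08 and 0.579 FPKM in old samples (log2 change -1.12, limma adjusted p = 0.323). Mapt-207, a model of 293 nt, overlapped between the groups and did not pass (limma adjusted p = 0.274). It was listed at 0 in young 1 and young 3, at 8.58 FPKM in young 2 and at 9.45, 8.42 and 6.46 FPKM in old samples. Fragment numbers were not estimated for models under 500 nt, and an antisense gene lies inside Mapt.

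**Figure D3:**
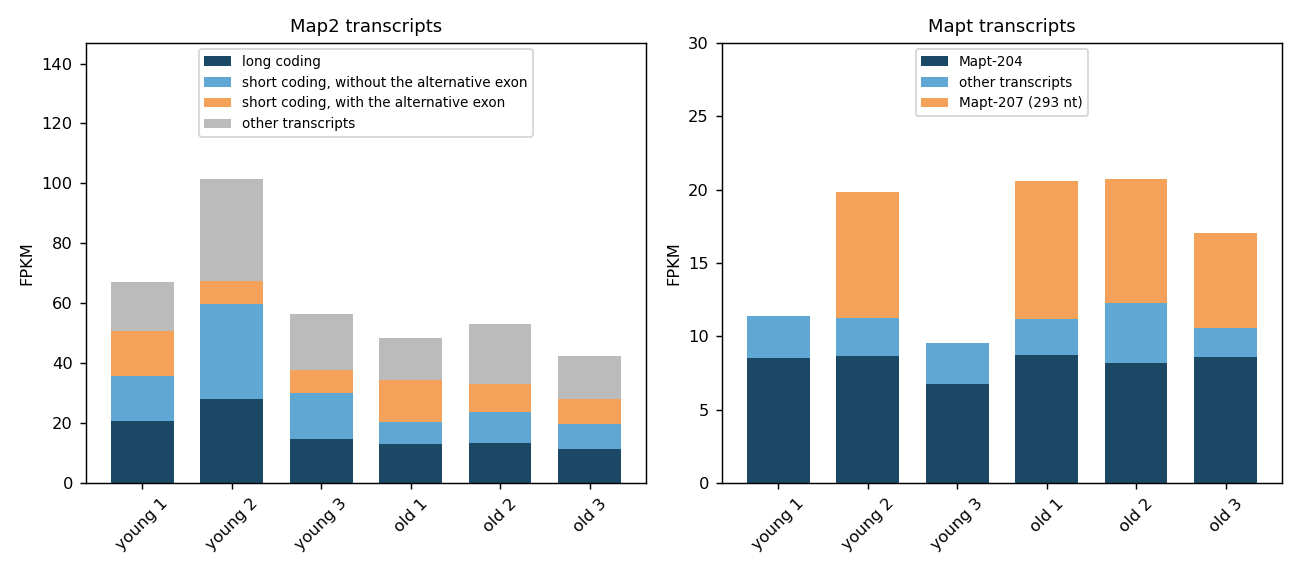
FPKM per sample (vertical axes, linear, from 0) of Map2 transcripts (left) and Mapt transcripts (right), stacked by transcript class; the alternative exon is the 93-nt exon of Map2, and bars add up to the gene's FPKM. The short Map2 class without the exon is lower in every old sample, and Mapt-207, the 293-nt transcript, is listed at 0 in young 1 and young 3 and lies between 6.46 and 9.45 FPKM in young 2 and the old samples.

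Other neuronal genes were lower beside the filament members. Of 16 spiral ganglion neuron markers, 10 were called lower and 1 higher by limma, with a median log2 change of -0.99, against 0.01 over all genes tested. Thy1, a surface protein of projection neurons, changed by -1.20 (limma adjusted p = 0.0167), the vesicular glutamate transporter Slc17a6 by -1.23 (limma adjusted p = 0.0230) and the calcium buffer Pvalb, the most abundant of the list, by -0.89 (limma adjusted p = 0.0207). Sncg, gamma-synuclein, was the marker that rose, from 17.9 to 27.2 FPKM in young to 44.3 to 52.2 FPKM in old samples (log2 change 1.03, limma adjusted p = 0.0197). The number called lower was 0 when any old sample or young 2 was left out, 1 without young 1 and 13 without young 3, and Sncg lost its call when any old sample was left out. Without the variance trend 0 were called lower and 0 higher, and without the filter on low values 3 were lower. Of 6 markers of type I subtypes, Calb2 (log2 change -1.11) and Pou4f1 (-1.52) were called lower, and the median was -0.72. Calb1, of the same list, went the other way. It was higher in every old sample without passing (log2 change 0.77, limma adjusted p = 0.0970), and Runx1 changed by 0.035. Of the type I markers 2 were called lower without young 3 and 0 when any other sample was left out.

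**Figure D4:**
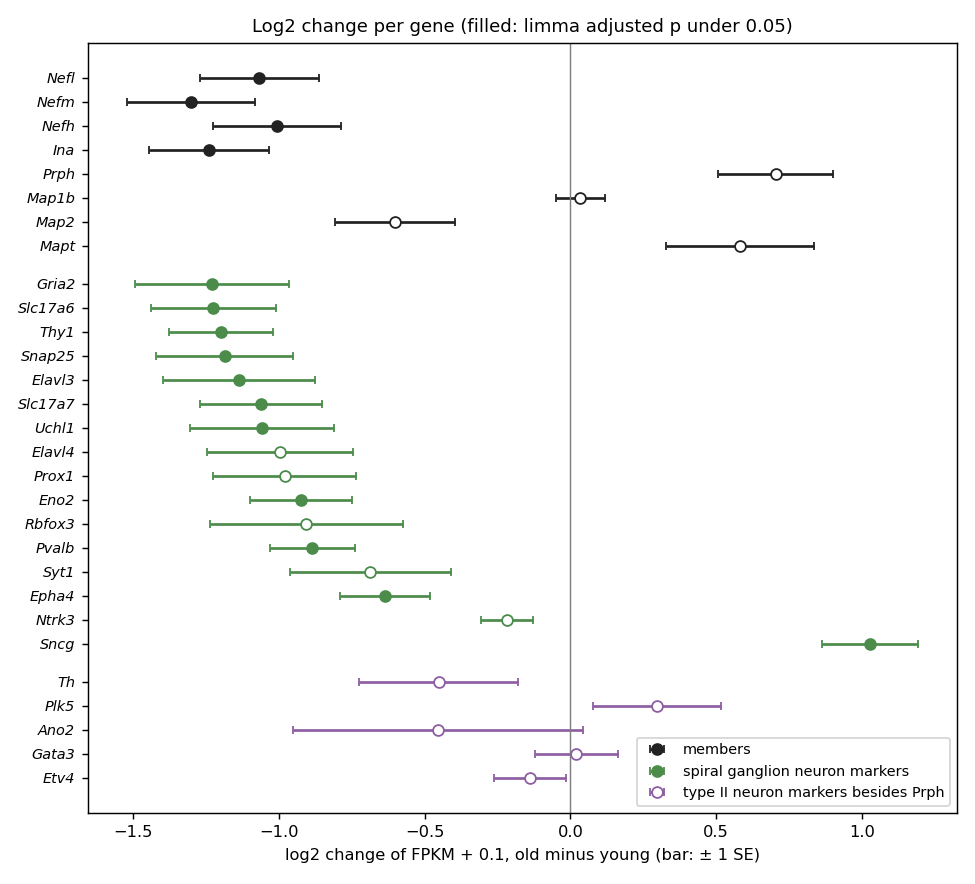
Log2 change of FPKM + 0.1, old minus young (horizontal axis; bar ± 1 SE from limma), for the members (black), spiral ganglion neuron markers (green) and type II neuron markers besides Prph (purple); filled points passed an adjusted p of 0.05 over all genes. Nefl, Nefm, Nefh and Ina lie between -1.30 and -1.01, among the neuron markers, while Prph lies at 0.70 with an open point.

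Some genes of the axonal cytoskeleton around the filaments were called lower, as were 3.68% of all genes. Among 15 other microtubule-associated genes 5 were lower and 0 higher, with a median of -0.61, and these were Stmn3 (log2 change -1.07), Stmn1 (-0.48), Map1a (-1.05), Dpysl3 (-0.45) and Crmp1 (-1.02), while Dclk1, the most abundant, changed by -0.16 without passing. Stathmins such as Stmn3 bind free tubulin, and Map1a belongs to mature neurons. Of 11 tubulin genes 3 were called lower and 0 higher, and the median was -0.08. Those called were the neuronal Tubb3 (-0.88), Tubb4a (-1.24) and Tubb2a (-0.39). Tubb2b (0.61, limma adjusted p = 0.0536) and Tuba1c (0.32) did not pass but were higher in every old sample. By position, 2 tubulins were higher and 5 lower in every old sample, against 17.5% and 16.0% of all genes. Tubb4b, the most abundant, was at 215 to 229 FPKM in young and 193 to 230.4 FPKM in old samples. Of 15 genes of axonal transport and filament linkers 5 were lower, the kinesin motors Kif5a (-0.95) and Kif5c (-0.89), the dynein chain Dync1i1 (-0.87), and Ank2 (-0.95) and Sptbn4 (-1.09) of the membrane skeleton, with a median of -0.27. The spectrin Sptbn1, the most abundant of that list, was 237 to 261 FPKM in young and 242 to 258 FPKM in old samples. When single samples were left out, the number called lower ranged from 0 (old 2) to 5 (young 3) among the microtubule-associated genes, and was 4 among the tubulins and 7 among the transport and linker genes without young 3 and 0 or 1 in both lists without any other sample. In the same order of lists it was 1, 0 and 0 without the variance trend and 2, 1 and 1 without the filter on low values.

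Markers of other cells moved between the groups as well, and their part in the members' differences was not tested. Summed Schwann cell and myelin markers ranged from 884 to 1333 FPKM in young and from 737 to 771 FPKM in old samples, with 6 of 10 genes lower, among them the myelin genes Cldn19 (log2 change -0.77), Ncmap (-0.67) and Drp2 (-0.65). That number was 9 without young 3 and 0 or 1 without any other sample, 0 without the variance trend and 2 without the filter on low values. Summed hair cell markers ranged from 116 to 207 FPKM in young and from 67.2 to 90.5 FPKM in old samples, with 3 of 8 lower (Ocm -1.18, Slc26a5 -1.10, Gfi1 -2.05). Of these markers 0 or 1 were called lower when an old sample was left out, 2 without the variance trend and 2 without the filter on low values. Most of that sum was Ocm, at 91.9 to 173 FPKM in young and 47.8 to 70.5 FPKM in old samples. Myo7a (log2 change 0.0018), Otof (-0.33) and Strc (-0.62) overlapped between the ages. Summed macrophage markers ranged from 124 to 193 FPKM in young and from 690 to 763 FPKM in old samples, with 8 of 8 higher (among them the lysozyme Lyz2, log2 change 2.64, and the complement genes C1qa, C1qb and C1qc, 1.77 to 1.95). That number was 1 without old 2, 6 to 8 without any other sample, 5 without the variance trend and 8 without the filter on low values. Of 7 central glia markers, 6 were tested and none passed (limma; 1 had an unadjusted p under 0.05 in each direction), and their sums were 51.6 to 64.2 FPKM in young and 51.3 to 54.2 FPKM in old samples. The most abundant, the glutamate transporter Slc1a2, was 26.0 to 37.6 FPKM in young and 24.9 to 27.2 FPKM in old samples. Mog, a myelin protein of the central nervous system, was 1.54 FPKM in young 1, 0.403 FPKM in old 2 and at most 0.0566 FPKM in the other samples.

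**Figure D5:**
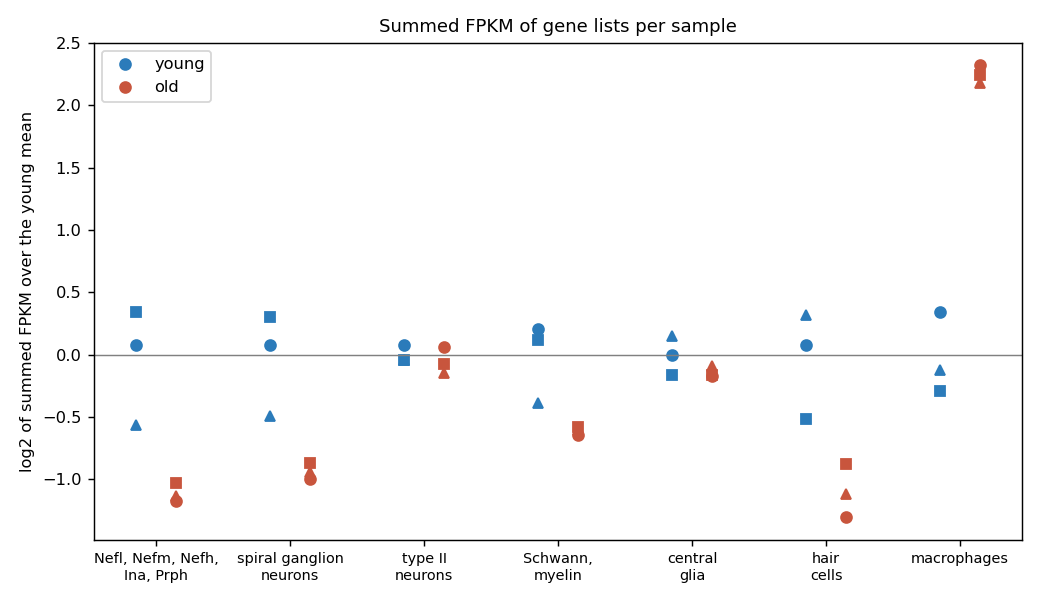
Log2 of the summed FPKM of each gene list over the mean of the young samples (vertical axis), for young (blue) and old (red) samples; circle, square and triangle are replicates 1, 2 and 3. The sums of the 5 filament members, spiral ganglion neuron markers, Schwann cell markers and hair cell markers are lower in every old sample, those of type II neuron markers and central glia overlap, and those of macrophage markers are higher in every old sample.

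The genes whose pattern over the 6 samples was most like that of Nefl were, in order, Gria2, Eno2, Scamp5, Lhfpl3, Clec2l, Snap25, Slc17a7, Sez6l2, Scn4b and Prx, among 15073 genes with a mean of at least 1 FPKM. Pearson's r of log2(FPKM + 0.1) with Nefl was 0.999 for Gria2, a glutamate receptor subunit, and 0.996 for Prx, a protein of the myelin sheath. The 6 points share the group difference and the low value of young 3, so these correlations are a description. Nefm took place 12 (r = 0.996), Nefh place 54 (0.992), Ina place 400 (0.965) and Map2 place 975 (0.914). Map1b (0.21), Mapt (-0.32) and Prph (-0.79) stood far from Nefl in the same ranking.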

How the data were processed

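RNA-sequencing of 6 pooled cochlear samples (3 per age) was analysed. Per the submitters' processing notes and the study's methods, the authors called bases with CASAVA 1.8, aligned reads to GRCm38 with TopHat2 2.0.9, assembled transcripts with Cufflinks 2.1.1 and computed with Cuffdiff 2.1.1 the deposited FPKM per transcript. The library kit was directional, and whether counting used the strand is not given in the sources used here. Of 56671 transcripts, 55275 were matched to GENCODE M21 gene IDs, the remaining 404 Ensembl and 992 of the authors' own transcripts were kept as separate genes, and FPKM were summed per gene (25823).

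Ages were compared in limma 3.58.1 (R 4.3.3; variance trend, two-sided) on log2(FPKM + 0.1), for genes or transcripts with a mean of at least 0.1 FPKM, with Benjamini-Hochberg adjustment over all of them and a threshold of 0.05. The code was tested on simulated data. Ratios were compared with exact permutation tests. Fragment numbers were estimated from steps between low FPKM and cover counting only. The depth was chosen so that a high share of them came out whole within 0.1 (92.8% to 94.5%), so that share is no check of the depth. Because samples were pools, p-values measure the spread between pools. The members, gene lists and pairs were chosen with earlier results of these data known. All members, of each list the called genes (at most 4 of smallest p) and the most abundant, and the 10 genes most correlated with Nefl were named, any other named gene was chosen after its values were seen, and some sequences and 1 gene are not reported here. Alternatives covered the pseudocount, filter, scaling, variance model, sample weights, transcript choice, the replicate number as a block and each sample left out; the alternative without transcripts under 500 nt was added after the data were seen.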

Additional observations from a re-analysis of the deposited data

How the results depend on the processing

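Nefl, Nefm, Nefh, Ina and Map2 stayed lower and Prph higher in old mice under all 17 alternatives. Mapt kept its sign, but its log2 change of 0.58 shrank to 0.033 (SE 0.10) without transcripts under 500 nt. With the most abundant transcript of each gene the change of Mapt was 0.099 (SE 0.13). The log2 change of Map1b turned to -0.033 with quantile normalization and ranged from -0.037 to 0.10 when single samples were left out. The number of members called lower, 4, became 2 without a filter on low values and 0 without the variance trend. When single samples were left out it was 0 to 4, 0 if that was an old one and 4 without young 3. What lowered these numbers was not tested. The number called higher, 0, became 1 with sample weights (Prph, limma adjusted p = 0.0452) and 0 to 1 when single samples were left out. The number of member transcripts called, 0, became 1 under a minimum mean of 1 FPKM and 0 to 3 when single samples were left out (3 without young 3). Ratios to Nefl kept their direction under all 9 alternatives. Over all genes with a mean of at least 1 FPKM, deviations of samples with equal replicate numbers were hardly correlated (0.03, -0.10 and 0.04). With the replicate number as a block 4 members were lower. The SE fell for every member except Prph, as from 0.20 to 0.12 for Map2, and rose from 0.20 to 0.21 for Prph. Genes called fell from 1787 to 675 in all, ganglion neuron markers called lower from 10 to 6 and Schwann cell markers from 6 to 3. Tubulins called lower fell from 3 to 1 and type I markers from 2 to 1, and Capn1 lost its call. Over single samples left out, genes called ranged from 59 (without old 2) to 1756. The median change of all genes was 0.01 and moved to -0.02 with quantile normalization. Depth limits Prph most, and FPKM of short or overlapping transcripts are estimates.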

Other observations

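Intermediate filament genes of other cell types were called in both directions. Of 12 such genes, 4 were called higher and 1 lower in old mice by limma, with a median log2 change of 0.19, against 5.41% called higher and 3.68% lower among all genes. The simple epithelial keratins Krt8 and Krt18 rose, Krt8 from 25.1, 20.5 and 35.2 FPKM in the young samples to 81.3, 66.5 and 80.5 FPKM in the old ones (log2 change 1.52, limma adjusted p = 0.0119) and Krt18 from 43.0, 35.6 and 53.3 FPKM to 112, 97.0 and 112 FPKM (1.30, limma adjusted p = 0.0116). Nes, nestin, rose by 1.02 (limma adjusted p = 0.0127) and the nuclear lamin Lmna by 0.30 (limma adjusted p = 0.0263). Synm, synemin, a partner of other filament proteins, fell by 0.58 (limma adjusted p = 0.0144). Vim, vimentin, the most abundant of the list, was 71.3 to 89.2 FPKM in young and 83.8 to 105 FPKM in old samples (0.24, limma adjusted p = 0.225). Without old 2, 1 gene of the list was called higher and 0 lower, and without any other single sample 3 or 4 were higher and 1 lower. Without the variance trend 3 were higher and 0 lower, so that Synm lost its call.

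Among 16 genes for kinases that phosphorylate neurofilaments or tau, and for their turnover, 1 was higher and 1 lower, with a median of -0.10; over all genes 5.41% were called higher and 3.68% lower, so that these are counts near the background. Capn1, a calcium-dependent protease that cuts neurofilaments, rose by 0.45 (limma adjusted p = 0.0230), and the kinase Mark1, which phosphorylates tau, fell by 0.73 (limma adjusted p = 0.0145). Cdk5, a kinase of the Lys-Ser-Pro repeats, was 19.5 to 22.9 FPKM in young and 18.9 to 19.9 FPKM in old samples, and its activators Cdk5r1 and Cdk5r2 had log2 changes of -0.85 and -1.26 that did not pass (limma adjusted p = 0.159 and 0.0762). Both calls were lost without young 2 or old 2, and that of Capn1 also without old 1, without old 3 and without the variance trend. Capn2, the most abundant of the list, was 55.5 to 58.1 FPKM in young and 55.3 to 62.1 FPKM in old samples.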
